A study of Mus musculus with 6 samples.

Results

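The genes described here are the oocyte-expressed members of the Nlrp family, without Nlrp5: Nlrp2, Nlrp4a, Nlrp4b, Nlrp4c, Nlrp4e, Nlrp4f, Nlrp9a, Nlrp9b, Nlrp9c and Nlrp14. The set was chosen by symbol from genes whose FPKM differences between these dKO and control libraries were already known, and all 10 were found among the 24028 genes of the deposited table. Total RNA was measured in mouse oocytes at the germinal vesicle stage, which are fully grown and arrested before meiotic maturation. The 3 dKO libraries came from Ring1 -/-; Rnf2 f/f females that carried Zp3-cre, a recombinase driven by an oocyte promoter and active in growing oocytes. The 3 control libraries came from Ring1 -/-; Rnf2 f/f females without Zp3-cre. Both groups thus lacked Ring1, all mice were of mixed FVB, 129/Sv and C57BL/6J background and about 3 months old, and each library held a pool of 15 oocytes from 1 female. Ring1 and Rnf2 encode the ubiquitin ligases at the core of Polycomb repressive complex 1, and the comparison addresses what their joint loss in the growing oocyte does to its transcripts. Zp3-cre with intact Rnf2 was not among the groups, and each group had its own sequencing index, so neither the transgene nor the index can be told apart from Rnf2 loss.

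NLRP proteins carry a nucleotide-binding NACHT domain and, in most members, a pyrin domain in front of it and leucine-rich repeats behind it. Some of them, such as NLRP3, assemble inflammasomes, complexes that activate caspase 1 in immune and epithelial cells. A separate branch of the family is expressed chiefly in germ cells, and its transcripts are stored in the growing oocyte. In mice this branch has expanded by tandem duplication into the Nlrp4 and Nlrp9 groups, most of which lie among vomeronasal receptor genes on chromosome 7. Several of its proteins are maternal factors of the cleavage-stage embryo and are found in or near the subcortical maternal complex.

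Expression is given in FPKM (fragments corrected for transcript length and library size), so levels of different genes can be compared per length. Absolute depth is unknown. Relative to control replicate 1, depth was 0.661, 0.805 and 1.08 in dKO replicates 1 to 3, against 0.904 and 1.02 in control replicates 2 and 3. Rnf2 was at 14.8, 8.44 and 5.31 FPKM in dKO libraries and at 53.7, 46.8 and 48.2 FPKM in controls, as the labels require. Ring1 did not exceed 0.24 FPKM in either group. All 10 oocyte markers were expressed in every library, and their sum was 5151 to 6935 FPKM in dKO libraries against 8439.9 to 8778 FPKM in controls; Kit and Bmp15 were called lower and 0 higher. The sums of 14 granulosa and cumulus markers were 48.9 to 50.3 FPKM in dKO libraries against 26.4 to 33.0 FPKM in controls. Of the 6 that passed the filter on low values, Fshr, Has2 and Nr5a2 were called higher and 0 lower. Over all tested genes 14.0% were called higher and 7.04% lower. Nr5a2 supplied the largest part of the granulosa and cumulus sums, with 24.2 to 27.3 FPKM in dKO libraries and 14.4 to 18.5 FPKM in controls. Fshr and Has2 were under 1 FPKM in every control and passed the filter on low values only through the dKO libraries. Cyp19a1, the aromatase gene, went the other way, with 5.23 to 6.19 FPKM in dKO libraries and 7.60 to 11.3 FPKM in controls. The sums of 11 immune markers were 45.6 to 60.3 FPKM in dKO libraries against 18.5 to 21.1 FPKM in controls. C1qb supplied most of the immune sum, with 41.8 to 56.8 FPKM in dKO libraries and 16.1 to 20.3 FPKM in controls. The defining markers Ptprc, Csf1r and Cd14 did not exceed 0.109 FPKM in any library, and C1qa, Tyrobp and the cumulus marker Ptx3 were listed at 0 throughout. The part of these markers in the differences below was not tested.

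Members and lists were chosen with earlier results of this comparison known. The differences of the members between dKO and control oocytes are therefore given as a description with no test, and the members that a fit over all genes called are counted beside the share of all genes that it called.

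All genes but Nlrp4e and Nlrp4c were at 50 FPKM or more in every library. The order of the mean levels was Nlrp14, Nlrp9a, Nlrp9b, Nlrp2, Nlrp4f, Nlrp4a, Nlrp9c, Nlrp4b, Nlrp4e and Nlrp4c in dKO oocytes, against Nlrp14, Nlrp9b, Nlrp4a, Nlrp9a, Nlrp2, Nlrp4f, Nlrp9c, Nlrp4b, Nlrp4e and Nlrp4c in controls. Nlrp14 ranked 19 among all genes by mean FPKM in dKO oocytes and 13 in controls. In the dKO group each gene from Nlrp9a down to Nlrp4b overlapped the next in that order, while Nlrp14 at the top and Nlrp4e and Nlrp4c at the bottom stood clear. In controls Nlrp4a and Nlrp9a overlapped, and all other neighbours in the order stood clear of each other. All 10 means were lower in dKO oocytes, and the groups of libraries did not overlap for 6 genes. Over all 11334 tested genes the groups did not overlap, with dKO lower, for 19.2%. The fit called 4 of the 10 lower (Nlrp4e, Nlrp9b, Nlrp14 and Nlrp4a) and 0 higher, where it called 21.0% of all tested genes, 7.04% lower and 14.0% higher (limma, Benjamini-Hochberg adjusted). Of the 8 with a mean over 50 FPKM it called 3 lower, and of all genes with such a mean 12.4% lower and 2.85% higher. Since the comparison was known when the genes were chosen, nothing is read from these counts. The median log2 difference was -0.49 over the members and -0.02 over all tested genes. It was -0.59 over the 10 oocyte markers and -0.67 over the 6 genes of the subcortical maternal complex. Over the 6 oocyte transcription factors it was 0.23. A lower median was thus not particular to the members. Each library pooled 15 oocytes, and FPKM are corrected for library size, so a change in the total RNA of an oocyte cannot be seen. For other cell types in bulk RNA, fewer cells and less RNA per cell cannot be told apart.

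**Figure D1:**
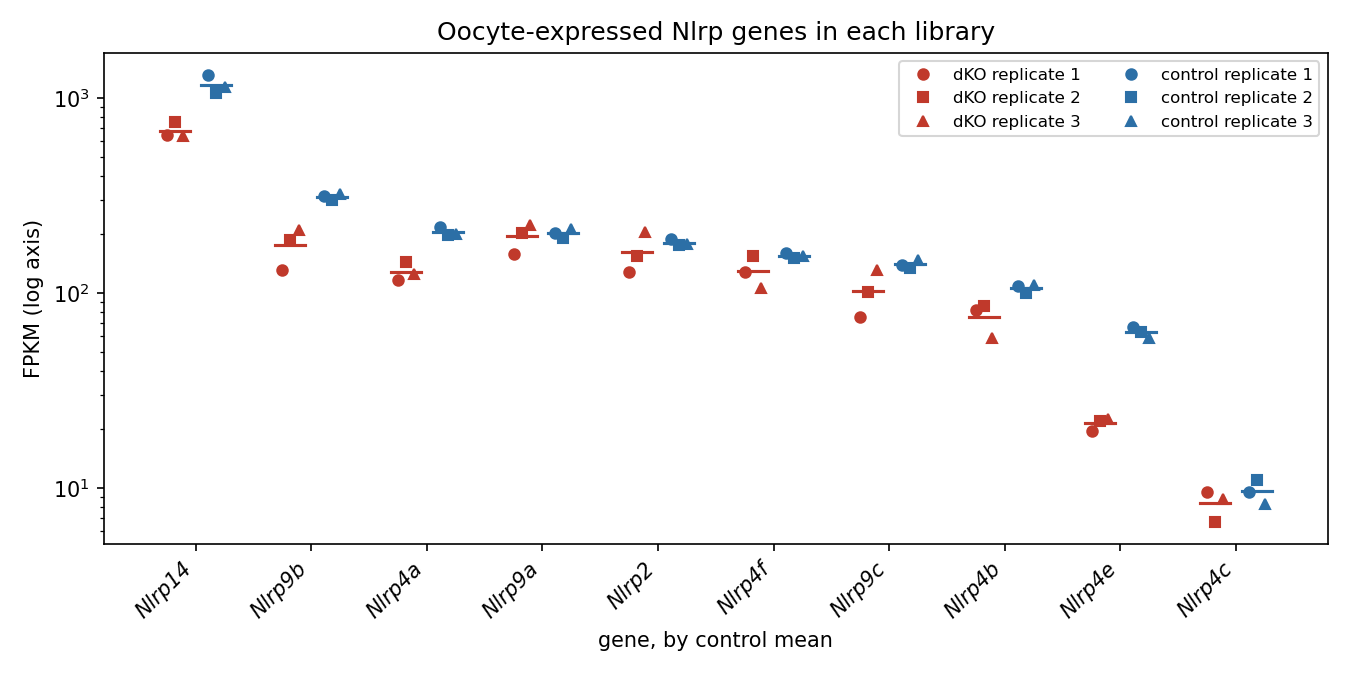
FPKM of each gene in each library on a log axis, with dKO (red) left of control (blue), one symbol per replicate and a line at the group mean. The libraries of the groups are apart for Nlrp14, Nlrp9b, Nlrp4a, Nlrp9c, Nlrp4b and Nlrp4e and overlap for Nlrp9a, Nlrp2, Nlrp4f and Nlrp4c.

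The Nlrp4 group held both the largest difference and some of the smallest differences of the family. Nlrp4e, whose product has been linked to development of the mouse preimplantation embryo, was at 19.7, 22.1 and 22.5 FPKM in dKO libraries and at 67.3, 62.9 and 59.1 FPKM in control libraries. Every dKO library was well below every control, and the spread within both groups was narrow. Its mean was 21.4 ± 1.56 FPKM in dKO oocytes and 63.1 ± 4.14 FPKM in controls (SD, n = 3 each), or 34.0% of the control mean, with a log2 difference of -1.51 ± 0.14 (SE). Nlrp4a was at 117, 144 and 126 FPKM in dKO libraries and at 218, 199 and 200.3 FPKM in controls. The groups did not overlap, and the mean in dKO oocytes was 62.7% of that in controls, with a log2 difference of -0.67 ± 0.15 (SE). Nlrp4b was at 82.0, 85.8 and 59.0 FPKM in dKO libraries and at 109, 100.3 and 110.2 FPKM in controls. Its groups did not overlap either, dKO replicate 3 being the lowest library, and its log2 difference was -0.51 ± 0.18 (SE).

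Nlrp4f encodes a protein that in mouse oocytes is associated with the subcortical maternal complex. It was at 128, 154 and 107 FPKM in dKO libraries and at 161, 151 and 156 FPKM in controls. dKO replicate 2 lay among the controls and dKO replicates 1 and 3 below them, and the log2 difference was -0.28 ± 0.17 (SE). Nlrp4c, the scarcest of the 10, was at 9.52, 6.70 and 8.82 FPKM in dKO libraries and at 9.59, 10.99 and 8.25 FPKM in controls. The groups overlapped, and the log2 difference was -0.19 ± 0.20 (SE). Nlrp4e, Nlrp4a and Nlrp4b thus stood apart from controls in every library, while Nlrp4f and Nlrp4c did not.

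The Nlrp9 group holds 3 genes, and they differed from each other in how they stood against controls. NLRP9B is known in mouse intestinal epithelium as the sensor of an antiviral inflammasome, whereas the role of the group in oocytes is less clear. Nlrp9b was at 131, 186 and 212 FPKM in dKO libraries and at 315, 301 and 323 FPKM in controls. No dKO library came near the controls, and the mean in dKO oocytes was 56.5% of that in controls, with a log2 difference of -0.85 ± 0.20 (SE). Nlrp9c was at 75.7, 101 and 131 FPKM in dKO libraries and at 139, 134 and 148 FPKM in controls. dKO replicate 3 lay just below the lowest control, and the log2 difference was -0.48 ± 0.20 (SE). Nlrp9a was at 160, 203 and 224 FPKM in dKO libraries and at 204, 191 and 212 FPKM in controls. The groups overlapped, dKO replicate 3 was above every control, and the log2 difference was -0.06 ± 0.17 (SE). All 3 genes were lowest in dKO replicate 1, the library of lowest depth, and highest among dKO libraries in dKO replicate 3.

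Nlrp14, the most abundant member, encodes a maternal factor without which mouse embryos arrest in early cleavage. It was at 644, 753 and 640.4 FPKM in dKO libraries and at 1309.6, 1063 and 1135 FPKM in controls. Its highest dKO library was far below its lowest control. The mean was 679 ± 63.8 FPKM in dKO oocytes and 1169 ± 127 FPKM in controls (SD, n = 3 each), or 58.1% of the control mean, with a log2 difference of -0.78 ± 0.19 (SE). Nlrp2, a maternal effect gene whose protein is also associated with the subcortical maternal complex, was at 129, 155 and 206 FPKM in dKO libraries and at 189.6, 176 and 178 FPKM in controls. dKO replicates 1 and 2 lay below the controls and dKO replicate 3 above them, with a log2 difference of -0.17 ± 0.19 (SE). The dKO libraries were more spread than controls for 9 of the 10 genes, by the ratio of the highest to the lowest library. Nlrp14 was the exception, with a ratio of 1.18 in dKO libraries and 1.23 in controls. For Nlrp4e the ratios were nearly equal, at 1.147 in dKO libraries and 1.140 in controls. Each of the 10 oocyte markers was also more spread in dKO libraries, so this trait was not particular to the members. The share over all genes was not computed.

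**Figure D2:**
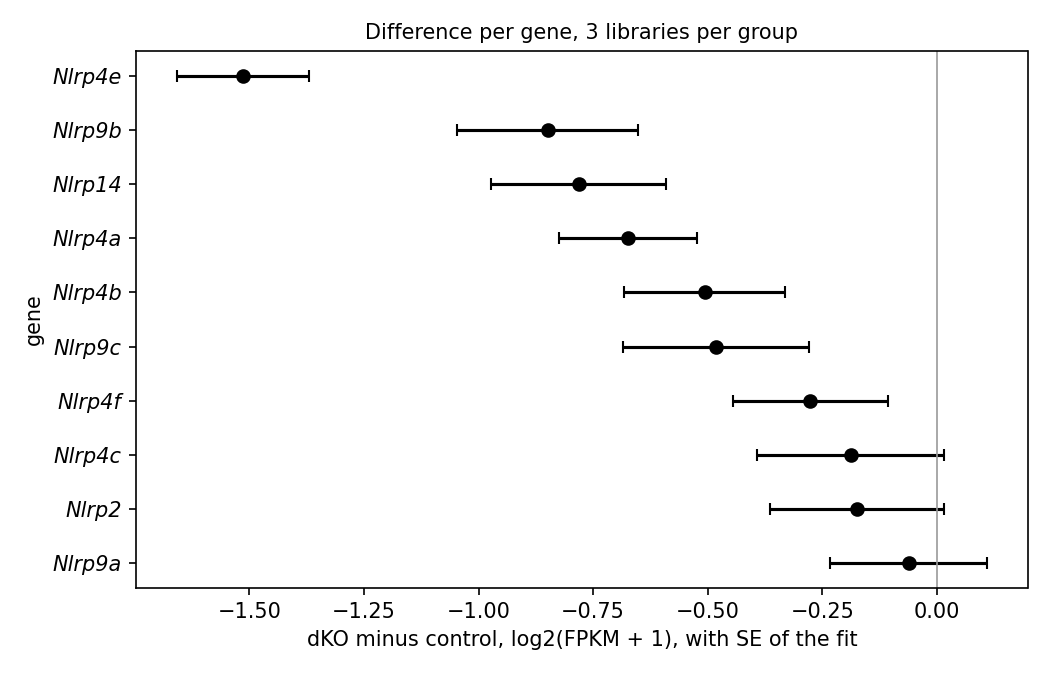
Log2 difference of each gene, dKO minus control on the log2(FPKM + 1) scale, as a point with its SE from the fit over all genes (3 libraries per group). The vertical line marks no difference. Differences run from -1.51 for Nlrp4e to -0.06 for Nlrp9a.

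Over the 15 alternative fits the log2 difference lay between -1.62 and -1.40 for Nlrp4e, between -0.99 and -0.59 for Nlrp9b, between -0.89 and -0.50 for Nlrp14 and between -0.78 and -0.49 for Nlrp4a. The count of members called lower depended on the controls: without control replicate 1, 2 or 3 it was 1 of 10 each time (Nlrp4e), while lower genes over the whole table numbered 253, 243 and 215. The directions of Nlrp2 and Nlrp9a depended on the scale: after quantile normalization their log2 differences were 0.06 and 0.19, and without dKO replicate 1 that of Nlrp9a was 0.08. The other 8 genes stayed below 0 in every alternative.

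**Figure D3:**
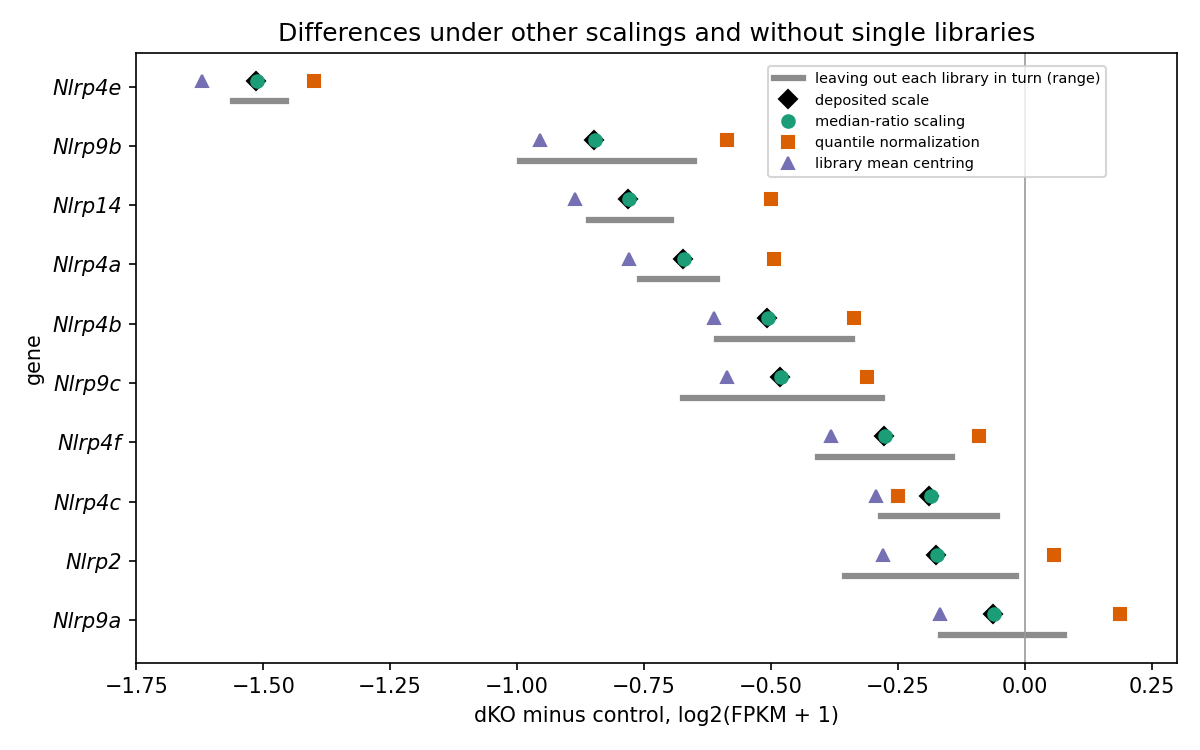
Log2 difference of each gene, dKO minus control on the log2(FPKM + 1) scale, on the deposited scale and under 3 other scalings, with a grey bar for the range when each of the 6 libraries is left out in turn. Quantile normalization moves Nlrp2 and Nlrp9a above 0, and Nlrp4e stays between -1.62 and -1.40 throughout.

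Ratios between 2 genes of the same library do not change when a library is multiplied by a single factor. The pairs were chosen after the values were seen, and the ratios are a description. Nlrp9b over Nlrp9a was 0.823, 0.916 and 0.947 in dKO libraries and 1.54, 1.57 and 1.52 in controls. Nlrp9b was thus the lesser of the pair in every dKO library and the greater in every control. Nlrp9c over Nlrp9a was 0.519 ± 0.0581 in dKO oocytes and 0.694 ± 0.00885 in controls (SD, n = 3 each), also without overlap. Nlrp4e over Nlrp4c was 2.06, 3.30 and 2.55 in dKO libraries and 7.02, 5.72 and 7.16 in controls. Nlrp4a over Nlrp4f was 1.01 ± 0.148 in dKO oocytes and 1.32 ± 0.0349 in controls (SD, n = 3 each). Within each of these pairs the genes differed unequally between the groups.

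**Figure D4:**
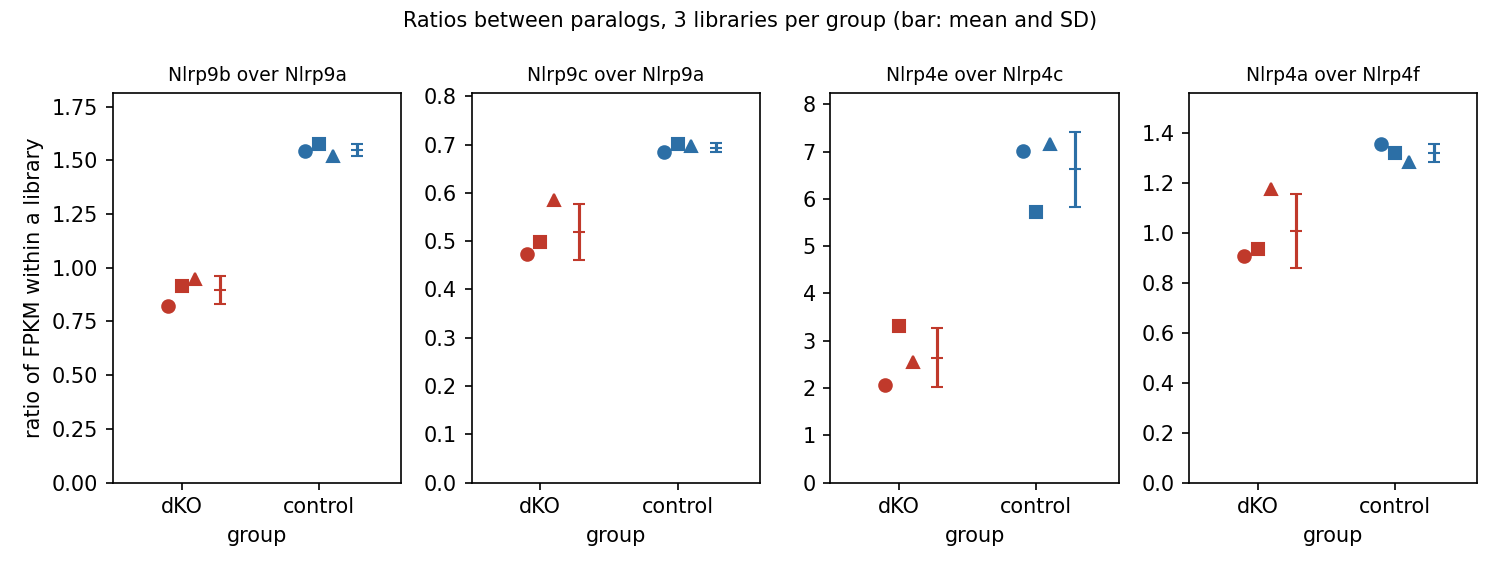
Ratio of FPKM between paralogs within a library, for 4 pairs, with dKO left of control, one symbol per replicate and the mean with its SD beside them (3 libraries per group). In each panel the dKO libraries lie below all controls; for Nlrp9b over Nlrp9a they lie at 0.823 to 0.947, against 1.52 to 1.57 in controls.

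Summed over the 10 genes, the level was 1496, 1812 and 1735 FPKM in dKO libraries and 2721, 2388 and 2529 FPKM in controls. The sum in dKO oocytes was 66.0% of that in controls, and the groups did not overlap. It made up 0.582 ± 0.0429% of all FPKM of a library in dKO oocytes and 0.792 ± 0.0554% in controls (SD, n = 3 each), and the total FPKM of the table was itself lower in dKO libraries, at 89.9% of controls. Nlrp14 supplied 40.5 ± 3.21% of the summed level in dKO oocytes and 45.8 ± 1.99% in controls. The share of Nlrp4e was 1.28 ± 0.0496% in dKO oocytes and 2.48 ± 0.149% in controls. The share of Nlrp9a was 11.6 ± 1.16% in dKO oocytes and 7.96 ± 0.459% in controls, and that of Nlrp2 was 9.68 ± 1.89% in dKO oocytes and 7.12 ± 0.210% in controls.

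Reads of near-identical copies can be split between them, so copies were also summed. In the GENCODE transcripts (release M21) Nlrp4c and Nlrp4e were 93.4% identical over 3343 aligned bases, Nlrp9a and Nlrp9c 88.2%, Nlrp9a and Nlrp9b 84.5% and Nlrp9b and Nlrp9c 83.7%. Of all 50-base stretches of Nlrp4e 36.9% also occurred in transcripts of other genes. This share was 11.9% for Nlrp4c, 7.08% for Nlrp4f, 4.99 to 6.54% for the Nlrp9 genes and 3.02% for Nlrp4a. It was 0.835% for Nlrp2 and 0.0% for Nlrp4b and Nlrp14. The shared stretches of Nlrp4a were spread over 520 other genes, 365 of them with a row in the table. The 8 genes that shared such stretches with Nlrp4e were Nlrp4a, Nlrp4c, Nlrp4g and 5 predicted loci named by Gm numbers, which shared the most. The value of Nlrp4e is therefore the least certain of the 10, and those of Nlrp14 and Nlrp4b the least touched by copies. The sum of Nlrp4c and Nlrp4e was 29.8 ± 1.38 FPKM in dKO oocytes and 72.7 ± 4.91 FPKM in controls (SD, n = 3 each), or 41.0% of controls. This sum leaves out the 5 predicted loci, so it cannot show how reads were split with them. Among those loci only Gm4541 had a row in the table. Gm4541 was at 2.95, 1.40 and 0.969 FPKM in dKO libraries and at 4.88, 4.24 and 4.5004 FPKM in controls. It too was lower in every dKO library. Nlrp4a, Nlrp4c, Nlrp4e and Nlrp4f are the 4 members of the Nlrp4 group joined by at least 80% identity. They summed to 288 ± 34.1 FPKM in dKO oocytes and 434 ± 18.4 FPKM in controls, or 66.5% of controls. Nlrp4g, a copy outside the members that was 94.0% identical to Nlrp4f, was not in this sum. The 3 Nlrp9 genes summed to 367, 491 and 566 FPKM in dKO libraries and to 658, 625 and 683 FPKM in controls, or 72.4% of controls (SD of the mean sums 101 in dKO oocytes and 28.9 in controls, n = 3 each). Neither sum overlapped between the groups.

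Promoter windows from RefSeq (GRCm38.p6, from 250 bases before to 50 bases after a start) were found for 9 of the 10 genes, with 11 starts in all. They held 0 to 7 CpG dinucleotides each, where the median of all 32851 windows was 7. Of the motifs searched on both strands, TATAAA was found in Nlrp9b alone (13.6% of all windows). A NOBOX motif (TAATTG or the variants TAGTTG or else TAATTA) was found in Nlrp9a and Nlrp9b (17.9%). The E-box CANNTG, the motif of the oocyte factor FIGLA among others, was found in 8 of the 9 genes. These held it in 10 of the 11 windows, against 72.3% of all windows. CCAAT, the motif named after the box that the factor NF-Y binds, was searched after the sequences had been read. It was found in 7 of the 9 genes, in 8 of the 11 windows (37.4% of all windows). Its longer form CCAATCA was found in 6 genes, in 7 of the 11 windows (7.82% of all windows). The 100 bases before the start are shown for those 6 genes and for Nlrp9b and Nlrp4e, the genes with the largest differences, with CCAAT on either strand in capitals.
Nlrp2, chr7:5351036-5351135, minus strand: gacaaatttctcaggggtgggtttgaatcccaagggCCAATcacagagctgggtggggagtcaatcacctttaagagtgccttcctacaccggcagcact
Nlrp4a (inner start), chr7:26435514-26435613, plus strand: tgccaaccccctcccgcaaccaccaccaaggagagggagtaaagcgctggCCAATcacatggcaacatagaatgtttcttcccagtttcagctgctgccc
Nlrp4b (outer start), chr7:10687693-10687792, plus strand: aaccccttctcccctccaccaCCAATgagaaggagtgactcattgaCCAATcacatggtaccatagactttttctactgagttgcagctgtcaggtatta
Nlrp4c, chr7:6045061-6045160, plus strand: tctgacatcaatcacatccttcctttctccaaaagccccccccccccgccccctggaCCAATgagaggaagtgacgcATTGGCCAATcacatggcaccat
Nlrp9a, chr7:26534923-26535022, plus strand: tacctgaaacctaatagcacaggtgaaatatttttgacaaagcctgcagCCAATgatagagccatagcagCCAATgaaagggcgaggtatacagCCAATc
Nlrp9c, chr7:26403701-26403800, minus strand: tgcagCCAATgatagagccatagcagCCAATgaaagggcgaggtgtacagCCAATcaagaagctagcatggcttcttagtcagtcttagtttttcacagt
Nlrp9b, chr7:20007923-20008022, plus strand: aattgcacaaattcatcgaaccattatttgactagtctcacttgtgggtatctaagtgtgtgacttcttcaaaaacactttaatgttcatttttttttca
Nlrp4e, chr7:23301092-23301191, plus strand: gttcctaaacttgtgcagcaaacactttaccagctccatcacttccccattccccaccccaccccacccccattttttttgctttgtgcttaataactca

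The windows of paralogs share descent, so a motif in several of them is not several independent matches. Over the 250 bases before the start, 198 were identical between Nlrp9a and Nlrp9c, whose 3 CCAAT boxes lie in the same arrangement. Between Nlrp9b and Nlrp9c 152 were identical, about as many as between Nlrp9b and Nlrp2 (150). Nlrp4a (inner start) and Nlrp4b shared 186. The outer start of Nlrp4a and the starts of Nlrp4f and Nlrp9b held no CCAAT in the whole window.

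NLR genes outside the members were mostly silent. Each count of called list genes is to be read against the 14.0% of all tested genes called higher and the 7.04% called lower. Of 23 listed, 22 had a row and 6 passed the filter on low values, of which 1 was higher and 1 lower in dKO oocytes and 4 did not pass the threshold (limma, adjusted over all genes). The median log2 difference of the 6 was -0.17. Nlrp4g, an oocyte-expressed copy that is 94.0% identical to Nlrp4f over 2027 aligned bases, was at 75.1, 78.8 and 77.2 FPKM in dKO libraries and at 128, 113 and 121 FPKM in controls. It fell, with a log2 difference of -0.64 ± 0.14 (SE; limma adjusted p = 0.0107), and lost its call without control replicate 1 or 3 (adjusted p up to 0.0716). Summed with Nlrp4f it was at 207 ± 24.8 FPKM in dKO oocytes and 277 ± 12.6 FPKM in controls (SD, n = 3 each). Naip1, which recognises a bacterial secretion protein and signals through Nlrc4, was at 40.0, 25.5 and 22.0 FPKM in dKO libraries and at 8.08, 8.15 and 6.88 FPKM in controls. It rose, with a log2 difference of 1.75 ± 0.23 (SE; limma adjusted p = 0.00092). Nlrc4 itself was at 4.42 ± 1.69 FPKM in dKO oocytes and 4.92 ± 0.722 FPKM in controls (SD, n = 3 each; limma adjusted p = 0.684). Nlrp5, the gene next to Nlrp4e and a core subunit of the subcortical maternal complex, was at 437, 573 and 460 FPKM in dKO libraries and at 666, 521 and 560 FPKM in controls (log2 difference -0.25 ± 0.19, SE; limma adjusted p = 0.379). The inflammasome sensors Nlrp3 and Nlrp6 did not exceed 0.308 FPKM in any library.

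Of 10 listed partners of inflammasomes 2 passed the filter, Nek7 and the abundant Txnip, and the other 8 did not exceed 1.03 FPKM in any library. Of the 2, 0 were called in either direction by limma, nor did either of the 2 have an unadjusted p under 0.05. Nek7, a kinase that binds NLRP3, was at 6.42 ± 0.804 FPKM in dKO oocytes and 6.67 ± 0.327 FPKM in controls, and Txnip, a thioredoxin-binding protein gene, at 271 ± 86.2 FPKM in dKO oocytes and 259 ± 18.6 FPKM in controls (SD, n = 3 each). The adaptor gene Pycard did not exceed 0.0827 FPKM in any library, and Il1b was listed at 0 in all 6.

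All 6 genes of the subcortical maternal complex passed the filter, of which 2 were lower in dKO oocytes and 0 higher, with a median log2 difference of -0.67. The calls were Tle6 and Ooep, with log2 differences of -1.15 ± 0.29 and -1.09 ± 0.31 (SE; limma adjusted p = 0.0242 and 0.0347). Both lost them when any 1 control was left out, Tle6 also without dKO replicate 3 and Ooep without dKO replicate 1 (the highest adjusted p from limma being 0.0879 for Tle6 and 0.113 for Ooep). With no filter neither passed (limma adjusted p = 0.0822 for Tle6 and 0.115 for Ooep), nor did Ooep after quantile normalization (limma adjusted p = 0.0777). Among 6 transcription factors of oocyte growth 2 were higher and 0 lower, with a median of 0.23. Sohlh2 was at 18.2 ± 3.27 FPKM in dKO oocytes and 1.53 ± 0.449 FPKM in controls, and Sohlh1 at 19.0, 21.7 and 3.10 FPKM in dKO libraries and at 0.148, 0 and 0.553 FPKM in controls (limma adjusted p = 5.08e-05 and 0.00384). Sohlh1 passed the filter only through the dKO libraries and was not tested when any of them was left out or at a filter of 5 FPKM. Nobox, which drives many oocyte genes, was at 346 ± 103 FPKM in dKO oocytes and 349 ± 12.2 FPKM in controls (limma adjusted p = 0.886). Figla, an E-box factor required for zona pellucida genes, was at 7.19, 8.35 and 9.04 FPKM in dKO libraries and at 13.4, 13.9 and 9.38 FPKM in controls (limma adjusted p = 0.113).

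The nearest genes on either side of the members, 32 with a row in the table, were in most cases vomeronasal and olfactory receptor genes, and 9 were listed at 0 in all libraries. The filter kept 9, of which 1 was higher and 2 lower in dKO oocytes, with a median log2 difference of -0.40. Igsf23, an immunoglobulin superfamily gene beside Nlrp9b, was at 8.26, 17.5 and 13.2 FPKM in dKO libraries and at 27.7, 27.6 and 32.3 FPKM in controls. It fell, with a log2 difference of -1.17 ± 0.25 (SE; limma adjusted p = 0.0107), and lost its call without control replicate 3 (adjusted p = 0.0526). Ceacam20, between Igsf23 and Nlrp9b, was at 18.2, 15.0 and 19.7 FPKM in dKO libraries and at 22.3, 25.4 and 28.6 FPKM in controls (limma adjusted p = 0.0705; named after its values were seen). Gm10324, near Nlrp4f, was at 7.43, 17.6 and 5.66 FPKM in dKO libraries and at 44.0, 41.3 and 45.1 FPKM in controls, with a log2 difference of -2.13 ± 0.33 (SE; limma adjusted p = 0.00227). Zscan4a, near Nlrp4b and one of a set of near-identical genes expressed at genome activation, was at 7.03, 10.2 and 1.78 FPKM in dKO libraries and at 0.97, 0.362 and 0.486 FPKM in controls. Its log2 difference was 1.99 ± 0.46 (SE; limma adjusted p = 0.0149), and it lost its call without control replicate 2 or 3 and with no filter (adjusted p up to 0.0684). It too passed the filter only through the dKO libraries and was not tested without any of them or at a filter of 5 FPKM. Among neighbours under the filter, Vmn1r165 and Gm6902 beside Nlrp4e and Vmn1r91 and Vmn1r93 beside Nlrp9b were also lower in every dKO library than in any control (chosen after their values were seen). Other neighbours under the filter went the other way. Cyp2a4, near Nlrp9c, Nlrp4a and Nlrp9a, was at 0.58 to 1.63 FPKM in dKO libraries and 0.0835 to 0.412 FPKM in controls. Zfp369 near Nlrp4f and Vmn1r65 near Nlrp4c were likewise higher in every dKO library than in any control. Vmn1r165 was at 0.0138, 0.00277 and 0 FPKM in dKO libraries and at 0.838, 0.812 and 0.723 FPKM in controls. With no filter, 6 neighbours were called lower and 0 higher, where that fit called 545 genes lower and 2006 higher over the whole table. The 9 neighbours listed at 0 in all libraries were not in that fit. Shares of the genes it tested were not computed, so nothing is read from this count.

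The 5 genes whose profile over the 6 libraries was most like the mean profile of the members were Dnmt3a, Wdr19, Vwa8, Ttc37 and Fbxw22. Likeness was the root mean square difference of log2(FPKM + 1) profiles, each centred on its mean, and was 0.0315 for Dnmt3a and 0.0507 for Fbxw22. Dnmt3a, the de novo DNA methyltransferase of the growing oocyte, was at 21.2, 23.8 and 24.0 FPKM in dKO libraries and at 34.3, 34.5 and 33.8 FPKM in controls. Fbxw22, an F-box gene, was at 106, 124 and 127 FPKM in dKO libraries and at 175, 155 and 174 FPKM in controls.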

How the data were processed

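The authors deposited FPKM in 1 table with a column for each library. TopHat2 2.0.11, Cufflinks 2.0.2 and mm9 are named in the submitters' processing notes, without roles. Annotation, strandedness and scaling across libraries were not given in the sources used here. Per the labels' protocols, granulosa cells were removed by pipetting and the RNA was amplified before library preparation. Of 24525 rows 497 repeated another row in full and were removed. The test was run on the 11334 genes, all 10 members among them, that reached 1 FPKM in 3 or more libraries. Values were transformed as log2(FPKM + 1) and compared with limma 3.58.1 under R 4.3.3 (trended eBayes, two-sided, Benjamini-Hochberg adjusted over all kept genes, threshold 0.05). The fit was tested on simulated data. Fold changes on the log2(FPKM + 1) scale are understated for low genes.

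Members and lists were chosen with earlier results of these data known. The genes named are the members and up to 3 called genes per direction of each list (or the 2 of highest mean). They also include the 5 genes of most similar profile and the genotype genes. Nlrc4, Nlrp3, Nlrp5, Nlrp6, Nobox, Figla, Pycard, Il1b, Ceacam20, Cyp19a1, Gm4541 and the named neighbours under the filter were added after their values were seen. Identity and shared 50-base stretches were computed with Biopython 1.88 from the longest annotated transcript of each gene, where protein identity had been planned; genome coordinates are of GRCm38.p6, not of the build of the values. Relative depth is the commonest ratio of low values of the same gene. The labels' library descriptions put libraries of the same replicate number on the same flow-cell lane, which pairs them; their deviations from the group means correlated at 0.147, 0.107 and 0.0637. The tests reported have no block.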

Additional observations from a re-analysis of the deposited data

How the results depend on the processing

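With the replicate number as a block, 1681 genes were higher and 887 lower in dKO oocytes, the same 4 members were called, and the calls on the other members and on the 9 called genes of the NLR, maternal complex, transcription factor and neighbour lists did not change. The summed level of the 10 genes stayed within 61.4 to 69.7% of controls under median-ratio scaling, library mean centring and the removal of each library, and grouping the Nlrp4 copies by name gave 67.4%. The median log2 difference of the members was -0.32 after quantile normalization and -0.60 after library mean centring, which moved the median of all genes to -0.12 and the number of lower genes to 1572. Quantile normalization left 2 members called among 1073 lower genes in all, and 1 gene of the subcortical maternal complex. The filter at 5 FPKM left 655 higher genes, 1 higher oocyte transcription factor and 0 higher neighbours. With no filter, 2006 genes were higher and 545 lower in all. In that fit 4 NLR genes outside the members, 1 inflammasome partner and 0 neighbours were higher. In the other direction, 0 genes of the subcortical maternal complex and 6 neighbours were lower. Shares of the genes tested were not computed for that fit. On removal of each library in turn, higher genes numbered 613 to 1164 and lower genes 215 to 1288 in all, and 1 to 5 members were called lower. In the same fits the lower NLR genes outside the members numbered 0 to 1, the lower genes of the subcortical maternal complex 0 to 2, the higher oocyte transcription factors 1 to 2, the higher neighbours 0 to 1 and the lower neighbours 1 to 2. The causes were not tested. Absolute depth is unknown, and dKO replicates 1 and 2 were the least deep.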
